A study of Mus musculus with 12 samples.

Results

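Monoamine and aldehyde oxidases are enzymes at the amine and indole branch of tryptophan metabolism, and the 5 genes described here were *Maoa*, *Maob*, *Ddc*, *Aox1* and *Aox3*, chosen by symbol from a table of 24532 genes. *Ddc* encodes aromatic L-amino acid decarboxylase, which uses pyridoxal phosphate to make tryptamine from tryptophan, serotonin from 5-hydroxytryptophan and dopamine from L-DOPA. *Maoa* and *Maob* encode the monoamine oxidases, flavoproteins of the outer mitochondrial membrane that turn such amines into aldehydes. *Aox1* and *Aox3* encode aldehyde oxidases, cytosolic enzymes with a molybdenum cofactor, FAD and iron-sulfur clusters that oxidize aldehydes, among them indole-3-acetaldehyde, and many nitrogen-containing rings of drugs. The liver is known for a high capacity in both steps, and indole products of tryptophan can act as ligands of the aryl hydrocarbon receptor (AhR), the transcription factor deleted in this study. All 5 genes were among the 14038 genes that passed the filter on low counts and were tested.

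RNA-sequencing (RNA-seq) values were analyzed for the livers of 12 male C57BL/6 mice in 4 groups of 3. WT mice carried the floxed allele, *Ahr* fl/fl, without the Cre gene, and *Ahr* HKO mice, their littermates, carried *Ahr* fl/fl with *Alb-Cre*, a Cre gene under the albumin promoter that removes the second exon of *Ahr* in hepatocytes. The floxed allele was thus shared by every group. The authors describe the deletion as specific to hepatocytes, which the values used here do not check. Mice of 10 to 12 weeks of age received either the control liquid diet or the Lieber-DeCarli diet with ethanol (EtOH) for 5 weeks, which gave the groups WT control, WT EtOH, *Ahr* HKO control and *Ahr* HKO EtOH. Levels are given as CPM, the read count of a gene scaled to a common library size, here after TMM scaling, a correction for differences in library composition. Changes are given as log2 FC ± SE from the quasi-likelihood test of edgeR, and a gene is said to be called, to rise or to fall only where its adjusted *P* value over all 14038 genes was below 0.05. The 4 comparisons of pairs of groups share samples with each other, so they are not independent of one another.

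The libraries held 46306518 to 74336255 reads on genes, and 3 counts, taken as the smallest detectable level, corresponded to 0.0425 to 0.0676 CPM. *Ahr* itself was at 16.6 to 20.2 CPM in WT control, 20.8 to 30.5 CPM in WT EtOH, 41.3 to 65.5 CPM in *Ahr* HKO control and 24.7 to 41.8 CPM in *Ahr* HKO EtOH. The count covers the whole gene and does not resolve the deleted exon, so it is no check of the genotype. *Cyp1a2*, a classical AhR target, was lower in *Ahr* HKO than in WT on both diets, by log2 FC values of -1.67 ± 0.399 without EtOH (adjusted *P* value = 0.0191) and -0.73 ± 0.118 with it (adjusted *P* value = 0.0457). Its *Ahr* HKO control livers were at 90.7, 112 and 258.2 CPM. *Cyp1a1*, also a target, went the other way on the control diet, from 0.256 CPM in WT to 0.723 CPM in *Ahr* HKO (log2 FC 1.495 ± 0.46, adjusted *P* value = 0.0458). On EtOH *Cyp1a1* was at 1.34 CPM in WT and 1.31 CPM in *Ahr* HKO (adjusted *P* value = 0.953). The 7 hepatocyte markers summed to 70630 to 113000 CPM across the libraries, albumin among them. The highest sums of markers of other cells were 343 CPM for 10 Kupffer cell and leukocyte genes, 476 CPM for 5 cholangiocyte genes, 378.5 CPM for 8 stellate cell genes, 430.8 CPM for 6 sinusoidal endothelial genes and 20.8 CPM for 7 mast cell and platelet genes. None of these markers was at 0 in every library. In whole liver, fewer cells of a type and less RNA per cell cannot be told apart.

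The genes lie in 3 places of the mouse genome (GRCm38.p6). *Maoa* (Entrez 17161, chrX:16619698-16687812, plus strand) and *Maob* (Entrez 109731, chrX:16709281-16817366, minus strand) are tail to tail with 21468 bases between them, and the main transcript of each has 15 exons. *Aox1* (Entrez 11761, chr1:58029809-58106410) and *Aox3* (Entrez 71724, chr1:58113135-58202221) follow each other on the plus strand with 6724 bases between them, and each has 35 exons. *Ddc* (Entrez 13195, chr11:11814101-11898144, minus strand) has 15 exons. The coding sequences of *Aox1* and *Aox3* were 67.2% identical over 3972 aligned bases and shared no run longer than 20 bases, and those of *Maoa* and *Maob* were 71.3% identical over 1548 aligned bases, with 35 bases as the longest run shared by the transcripts. A read that lies wholly within such a run cannot be assigned to 1 gene of the pair by its sequence. The read length that the paper gives is longer than either run. Read lengths after trimming are not known here.

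The adjacent *Aox1* and *Aox3* moved in opposite directions with EtOH in WT livers, so bases around their start sites are shown. They come from the RefSeq promoter table. For *Aox3* the stretch runs from 250 bases before the start to the last base before any annotated model, and for *Aox1* the 30 bases around the match are shown. These *Aox1* bases lie before the start that the promoter table uses, and after the outermost annotated start of the gene given above. Capitals mark the core of the xenobiotic response element (XRE), GCGTG or CACGC on the other strand, the letters AhR is known to bind.
Aox1, chr1:58029820-58029849, plus strand: cagcttgtctccCACGCtggcacactctgt
Aox3, chr1:58112886-58113129, plus strand: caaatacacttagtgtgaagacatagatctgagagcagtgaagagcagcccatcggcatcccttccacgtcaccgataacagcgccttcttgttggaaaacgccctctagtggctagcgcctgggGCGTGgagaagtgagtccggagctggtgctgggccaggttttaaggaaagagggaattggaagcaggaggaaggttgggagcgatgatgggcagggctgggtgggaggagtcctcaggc
Each of the 2 windows held 1 such core, at position -137 from the start of the promoter table on the minus strand for *Aox1* and at position -125 on the plus strand for *Aox3*. The upstream one of 2 *Ddc* windows held 1 core at position -80, and the other *Ddc* window and the *Maoa* window held none. The core is short, and 32.4% of all 32851 promoter windows of this length, 250 bases before to 50 after a start, held at least 1 match. The core of the antioxidant response element, TGACNNNGC, the letters bound by NRF2, was found in none of the 5 windows and in 12.4% of all windows. *Maob* was matched to no window. These matches are a description of letters and not of binding.

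Per gene length, the 5 genes spanned a wide range of levels. In WT control livers *Aox3* ranked 488 among the 14038 tested genes by mean FPKM, a read count scaled to gene length and library size, *Maob* ranked 1166, *Ddc* 2966, *Aox1* 3692 and *Maoa* 9597. In WT EtOH livers *Maob* came first of the 5 at rank 875, ahead of *Aox3* at 1273, *Ddc* at 1924, *Aox1* at 2064 and *Maoa* at 7773. *Ddc* had its lowest rank, 6087, in *Ahr* HKO control livers.

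**Figure D1:**
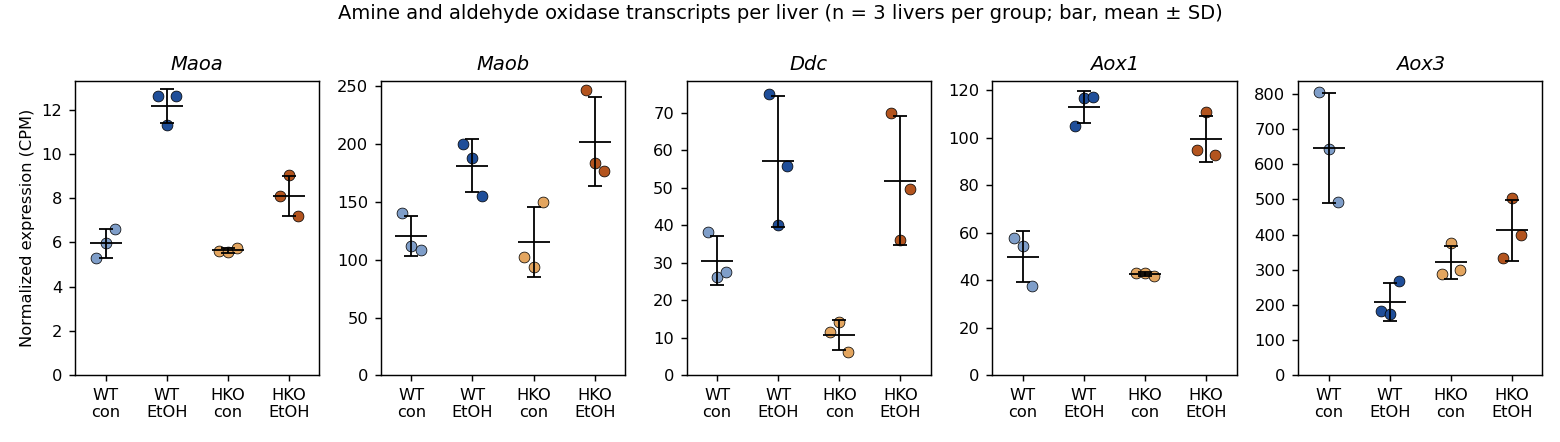
Normalized expression (CPM, linear axis from 0, a separate scale for each gene) of the 5 genes in each of the 12 livers, with 1 point per liver and bars for mean ± SD of 3 livers. *Aox3* is the only one of the 5 whose WT EtOH livers (173.6 to 269.3 CPM) lie below all WT control livers (492.4 to 804.1 CPM).

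The first comparison asks how the 5 genes differ between WT mice on the EtOH and the control diet. *Aox1*, *Maoa* and *Maob* rose, *Aox3* fell, and *Ddc* did not pass the test. For all 5 genes the groups did not overlap. Among all tested genes, 4.24% were called higher and 4.48% lower in this comparison, and 16.2% lay without overlap above and 16.6% below the control livers.

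*Aox3*, the more abundant of the 2 aldehyde oxidase transcripts, was at 804.1, 642.9 and 492.4 CPM in WT control livers and at 182.2, 173.6 and 269.3 CPM in WT EtOH livers. Every EtOH liver was below every control liver, and the log2 FC was -1.63 ± 0.237, a 3.1-fold lower level (adjusted *P* value = 0.0101). *Aox1* went the other way. Its values were 57.7, 54.6 and 37.8 CPM in control livers and 105.1, 116.8 and 117.1 CPM in EtOH livers, with the highest control liver far below the lowest EtOH liver. The log2 FC of *Aox1* was 1.18 ± 0.164, or 2.26-fold (adjusted *P* value = 0.00895).

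*Maoa*, whose enzyme prefers serotonin and noradrenaline, had the lowest FPKM rank of the 5. It was at 5.3, 6 and 6.6 CPM in WT control livers and 12.6, 11.3 and 12.6 CPM in WT EtOH livers, which rest on 243 to 791 counts per library over the whole series. The EtOH livers were all higher, by 2.04-fold (log2 FC 1.03 ± 0.128, adjusted *P* value = 0.00591). *Maob*, whose enzyme prefers phenylethylamine, was at 140.2, 111.7 and 108.7 CPM in control livers and 200.1, 188.2 and 155.4 CPM in EtOH livers. The increase was 1.51-fold (log2 FC 0.59 ± 0.143, adjusted *P* value = 0.0475). The *Maob* call was close to the threshold and was lost without any one of 5 of the 6 livers, with adjusted *P* values from 0.0435 to 0.153 over the 6 fits, the exception being WT EtOH liver 3.

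*Ddc* was at 38.1, 26.1 and 27.4 CPM in WT control livers and 74.96, 40.2 and 55.9 CPM in WT EtOH livers. The lowest EtOH liver was just above the highest control liver, and the spread within EtOH was wide. The log2 FC was 0.90 ± 0.244 with an adjusted *P* value of 0.0639. Without WT EtOH liver 2, the lowest of that group, *Ddc* was called (log2 FC 1.08, adjusted *P* value = 0.0371), and adjusted *P* values ranged from 0.0371 to 0.187 over the 6 fits with 1 liver left out.

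The same diet comparison in *Ahr* HKO mice gave 4 calls, all of higher levels. *Ddc*, *Aox1*, *Maob* and *Maoa* rose, and *Aox3* did not pass the test. Among all tested genes 15% were called higher and 16.1% lower, and 24.5% lay without overlap above and 25.3% below the control livers.

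*Ddc* showed the largest change of the 5, with 11.5, 14.2 and 6.31 CPM in *Ahr* HKO control livers and 70.0, 35.9 and 49.6 CPM in *Ahr* HKO EtOH livers. Even the lowest EtOH liver stood well above the highest control liver, and the increase was 4.84-fold (log2 FC 2.28 ± 0.347, adjusted *P* value = 0.00496). *Aox1* was at 43.3, 43.3 and 41.8 CPM without EtOH and 95.0, 110.8 and 92.7 CPM with it, a 2.33-fold increase (log2 FC 1.22 ± 0.106, adjusted *P* value = 0.00141). The 3 control livers agreed within a narrow range for *Aox1*, 0.892 CPM as SD around 42.8 CPM.

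*Maoa* was at 5.62, 5.56 and 5.77 CPM in *Ahr* HKO control livers and 8.08, 9.03 and 7.19 CPM in *Ahr* HKO EtOH livers, a 1.43-fold increase (log2 FC 0.52 ± 0.13, adjusted *P* value = 0.0233). *Maob* was at 102.0, 93.8 and 149.9 CPM and at 246.3, 183.2 and 176.6 CPM, a 1.75-fold increase (log2 FC 0.81 ± 0.216, adjusted *P* value = 0.029). Both monoamine oxidase transcripts were thus higher in every EtOH liver than in every control liver. Both calls were lost without *Ahr* HKO control liver 1 or 2 or *Ahr* HKO EtOH liver 1 or 2, and that of *Maob* also without *Ahr* HKO EtOH liver 3. Adjusted *P* values with 1 liver left out ranged from 0.0368 to 0.0779 for *Maoa* and from 0.0105 to 0.0872 for *Maob*.

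*Aox3* was at 288.5, 375.7 and 299.2 CPM in *Ahr* HKO control livers and 333.6, 505.0 and 398.6 CPM in *Ahr* HKO EtOH livers. The groups overlapped, and the log2 FC was 0.36 ± 0.185 (adjusted *P* value = 0.175).

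**Figure D2:**
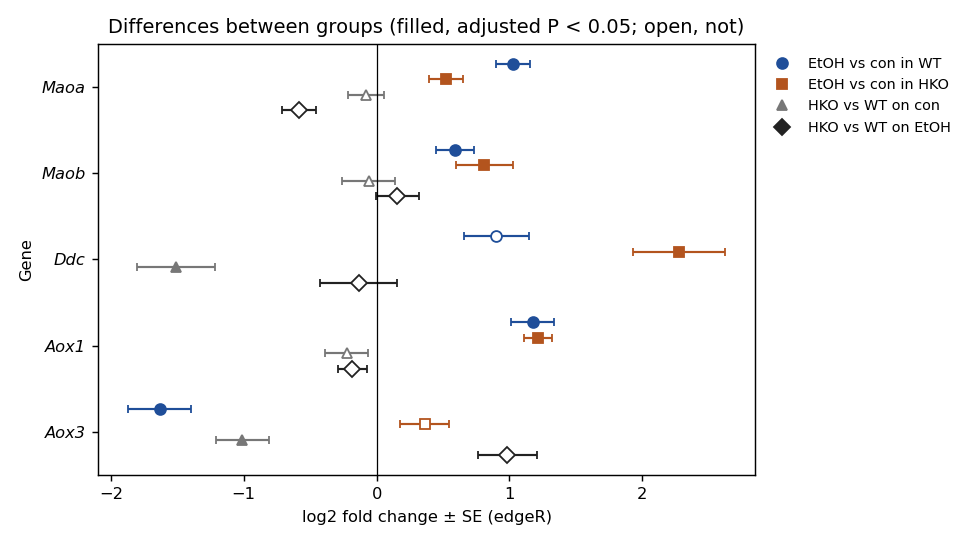
Log2 fold change ± SE from edgeR (horizontal axis) for each of the 5 genes (vertical axis) in the 4 comparisons of pairs of groups, with filled symbols for an adjusted *P* value under 0.05 and open symbols otherwise. *Aox3* has a log2 FC of -1.63 with EtOH in WT and 0.36 in *Ahr* HKO, whereas the *Aox1* values, 1.18 and 1.22, lie side by side.

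On the control diet *Ddc* and *Aox3* fell in *Ahr* HKO livers, and *Maoa*, *Maob* and *Aox1* were not called. *Ddc* was at 26.1 to 38.1 CPM in WT and 6.31 to 14.2 CPM in *Ahr* HKO, 2.85-fold lower (log2 FC -1.51 ± 0.294, adjusted *P* value = 0.00937). *Aox3* was at 492.4 to 804.1 CPM in WT and 288.5 to 375.7 CPM in *Ahr* HKO, 2.01-fold lower (log2 FC -1.01 ± 0.202, adjusted *P* value = 0.0103). In both cases no *Ahr* HKO liver reached the lowest WT liver. These 2 of 5 genes compare with 14.4% of all tested genes called lower and 15.3% called higher, and with 24.1% below and 23.2% above WT without overlap.

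The other 3 genes had small differences with overlapping groups on the control diet. The log2 FC was -0.08 ± 0.133 for *Maoa* (adjusted *P* value = 0.692), -0.06 ± 0.198 for *Maob* (0.843) and -0.23 ± 0.159 for *Aox1* (0.324). Without WT control liver 3, which had the lowest *Aox1* level of its group, the *Aox1* difference was called (log2 FC -0.39, adjusted *P* value = 0.0416), and adjusted *P* values ranged from 0.0416 to 0.674 with 1 liver left out.

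On EtOH none of the 5 genes passed edgeR's test between *Ahr* HKO and WT. *Maoa* was at 7.19 to 9.03 CPM in *Ahr* HKO and 11.3 to 12.6 CPM in WT, without overlap, with a log2 FC of -0.58 ± 0.126 (unadjusted *P* = 0.00222, adjusted *P* value = 0.0779). *Aox3* was at 333.6 to 505.0 CPM in *Ahr* HKO and 173.6 to 269.3 CPM in WT, again without overlap, with a log2 FC of 0.98 ± 0.22 (unadjusted *P* = 0.00267, adjusted *P* value = 0.0845). The groups overlapped for *Ddc* (log2 FC -0.14 ± 0.292), *Aox1* (-0.18 ± 0.108) and *Maob* (0.16 ± 0.164), with adjusted *P* values of 0.823, 0.371 and 0.618.

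Few genes of any kind were called on EtOH, 0.684% higher and 0.378% lower in *Ahr* HKO, while 13.7% lay above and 14.2% below WT without overlap. Before adjustment, 2 of the 5 genes and 2950 of all tested genes had a *P* value below 0.05. The Wald test of DESeq2 called the same 2 genes, *Maoa* with an adjusted *P* value of 0.0023 and *Aox3* with 0.000734. The shares given above are those of edgeR and not of DESeq2. Over the planned settings, DESeq2 among them, 113 to 1484 of all genes were called in this comparison, beside 149 in the main fit. Over all planned settings and left-out livers the adjusted *P* values ranged from 0.0023 to 0.254 for *Maoa* and from 0.000734 to 0.243 for *Aox3*.

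Whether EtOH changed a gene by a different amount in the genotypes was tested with the interaction term over all 12 livers, given as the diet difference in *Ahr* HKO minus that in WT. *Aox3* was called, with 1.99 ± 0.323 on the log2 scale (adjusted *P* value = 0.00229). The share of all tested genes called was 11.2% with a positive and 11.1% with a negative interaction. The *Aox3* interaction was called in every planned setting and with any liver left out, at 1.72 to 2.22.

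*Ddc* and *Maoa* stood just outside the threshold for the interaction, and each was called in 5 of 8 planned settings of the processing (adjusted *P* value down to 0.0122 for *Ddc* and 0.00537 for *Maoa*). That of *Ddc* was 1.38 ± 0.46 (adjusted *P* value = 0.0517) and that of *Maoa* was -0.51 ± 0.169 (adjusted *P* value = 0.0519). Leaving out *Ahr* HKO EtOH liver 2 brought both past the threshold (0.0359 and 0.0416), leaving out WT EtOH liver 1 or *Ahr* HKO control liver 2 did so for *Ddc* (0.035 and 0.0351), and leaving out WT control liver 3 for *Maoa* (0.0477). With 1 liver left out, adjusted *P* values reached at most 0.117 for *Ddc* and 0.115 for *Maoa*. *Maob* (0.22 ± 0.277, adjusted *P* value = 0.611) and *Aox1* (0.04 ± 0.2, adjusted *P* value = 0.905) were not called. Over the planned settings 2745 to 3977 of all genes had a called interaction, beside 3137 in the main fit, and 2267 to 3084 with 1 liver left out.

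Across the 4 groups the order of levels was different for the 5 genes. *Aox3* was lowest in WT EtOH at 208.4 ± 52.9 CPM (SD, n = 3), apart from all others, and *Ahr* HKO control at 321.1 ± 47.6 CPM overlapped *Ahr* HKO EtOH at 412.4 ± 86.5 CPM, which in turn overlapped WT control at 646.5 ± 155.9 CPM. *Ddc* was lowest in *Ahr* HKO control at 10.7 ± 4.03 CPM, apart from all others, and WT control (30.5 ± 6.58 CPM), *Ahr* HKO EtOH (51.9 ± 17.1 CPM) and WT EtOH (57.0 ± 17.4 CPM) each overlapped their neighbor in this order. For *Aox1* and *Maob* the levels formed a lower pair of control groups and a higher pair of EtOH groups, with overlap within each pair and none between them. For *Maoa* the control groups overlapped, at 5.65 ± 0.106 CPM in *Ahr* HKO and 5.97 ± 0.65 CPM in WT, and *Ahr* HKO EtOH at 8.1 ± 0.918 CPM and WT EtOH at 12.2 ± 0.751 CPM each stood apart.

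The paired enzymes were also set against each other within each liver, using FPKM because it accounts for gene length. *Aox1* made up 6.66%, 7.79% and 7.09% of the summed *Aox1* and *Aox3* FPKM in the WT control livers and 36.5%, 40.1% and 30.2% in the WT EtOH livers. In *Ahr* HKO livers the share was 13.0%, 10.3% and 12.2% on the control diet and 22.1%, 17.9% and 18.8% on EtOH. No 2 of the 4 groups overlapped in this share, which was lowest in WT control and highest in WT EtOH.

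On the log2 scale the ratio of *Aox1* to *Aox3* was higher on EtOH by 2.83 in WT (7.12-fold) and by 0.86 in *Ahr* HKO (1.82-fold), and was 0.79 higher in *Ahr* HKO than in WT on the control diet and 2.26-fold lower on EtOH. Each of these had an exact permutation *P* of 0.1, two-sided, the smallest that 3 against 3 livers can give, and 0.16 after adjustment over the 8 ratio comparisons, so the exact test cannot go below a threshold of 0.05 with this number of livers. The summed FPKM of the aldehyde oxidases was 150.7 ± 35.9 (SD, n = 3) in WT control, 78.1 ± 14 in WT EtOH, 80.4 ± 14.7 in *Ahr* HKO control and 107.1 ± 21.2 in *Ahr* HKO EtOH. WT control livers did not overlap either WT EtOH or *Ahr* HKO control in this sum.

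**Figure D3:**
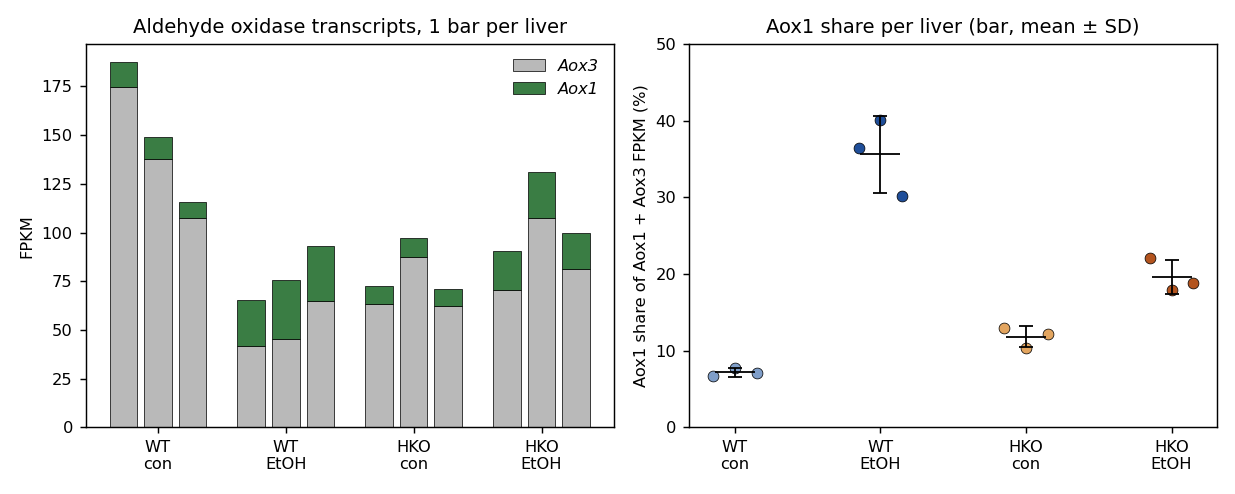
Left, FPKM of *Aox3* (gray) and *Aox1* (green) stacked for each of the 12 livers on an axis from 0. Right, *Aox1* as a percentage of the *Aox1* plus *Aox3* FPKM, with 1 point per liver and bars for mean ± SD of 3 livers, from 7.18 ± 0.57% in WT control to 35.6 ± 5.01% in WT EtOH.

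*Maob* was the predominant monoamine oxidase transcript in each of the 12 livers, at 21.3 to 52.6 times the *Maoa* FPKM. It made up 97.2% of the summed *Maoa* and *Maob* FPKM in WT control livers, 96.2% in WT EtOH, 97.1% in *Ahr* HKO control and 97.7% in *Ahr* HKO EtOH. The sum was 48.4 ± 6.88 FPKM (SD, n = 3) in WT control and 82.9 ± 10.6 in WT EtOH, and 46.8 ± 9.58 and 78.3 ± 15.4 in the *Ahr* HKO groups on the same diets. The EtOH livers were above all control livers in both genotypes (exact permutation *P* = 0.1 for each, 0.2 after adjustment over 8 sums).

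The ratio between the monoamine oxidases had smaller differences between groups, as values, than that between the aldehyde oxidases, which was not tested. The log2 ratio of *Maob* to *Maoa* was 5.12 ± 0.356 (SD, n = 3) in WT control, 4.68 ± 0.234 in WT EtOH, 5.11 ± 0.334 in *Ahr* HKO control and 5.42 ± 0.294 in *Ahr* HKO EtOH. On EtOH it was 0.74 higher in *Ahr* HKO than in WT, 1.67-fold, with no overlap and an exact permutation *P* of 0.1 (0.16 adjusted over 8 comparisons). The differences with diet, -0.44 in WT and 0.31 in *Ahr* HKO, had exact permutation *P* values of 0.2 and 0.3, and the difference between genotypes on the control diet was -0.009 (*P* = 0.9).

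The wider list of tryptophan amine and indole enzymes held 16 genes, the 5 members included. The tryptophan hydroxylases *Tph1* and *Tph2*, which start serotonin synthesis, the melatonin enzymes *Aanat* and *Asmt*, and *Aox4* had no read in any library. Of the 9 genes tested, the 5 members among them, 5 rose and 1 fell with EtOH in WT, and 6 rose and none fell in *Ahr* HKO. In *Ahr* HKO against WT, 1 rose and 3 fell on the control diet, and 1 fell on EtOH, and 1 gene had a positive interaction. Members made up 3 of the rises and the fall in WT, 4 of the rises in *Ahr* HKO and 2 of the falls on the control diet. Over all tested genes, 4.24% were called higher and 4.48% lower with EtOH in WT, and 15% and 16.1% in *Ahr* HKO. Between genotypes these shares were 15.3% and 14.4% on the control diet and 0.684% and 0.378% on EtOH. For the interaction they were 11.2% and 11.1%. They also apply to the lists below. The median log2 FC of the list with EtOH was 0.90 in WT and 0.85 in *Ahr* HKO, beside 0.01 and -0.02 over all tested genes.

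Among the genes of that list beyond the 5 members, *Cyp1a2* rose from 490.3 to 1089 CPM with EtOH in WT (log2 FC 1.15 ± 0.184, adjusted *P* value = 0.0142) and from 153.6 to 657 CPM in *Ahr* HKO (2.097 ± 0.382, adjusted *P* value = 0.00837). *Cyp1a1*, another AhR target, was low in every group and rose from 0.256 to 1.34 CPM in WT (log2 FC 2.39 ± 0.393, adjusted *P* value = 0.0155). It was the gene of this list that was higher in *Ahr* HKO on the control diet, at 0.723 CPM (adjusted *P* value = 0.0458). With EtOH in *Ahr* HKO it was not called (1.31 CPM, adjusted *P* value = 0.112). *Inmt*, which methylates tryptamine, rose in *Ahr* HKO from 126.2 to 521.3 CPM (log2 FC 2.05 ± 0.498, adjusted *P* value = 0.0214). Its WT livers gave 205.2 CPM without and 248.4 CPM with EtOH (adjusted *P* value = 0.754).

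The aldehydes made by monoamine oxidases are also substrates of aldehyde dehydrogenases. Of 5 such genes none was called with EtOH in WT or between genotypes on either diet, 3 rose with EtOH in *Ahr* HKO, and 2 had a positive interaction. *Aldh1b1*, a mitochondrial enzyme, rose from 27.8 to 69.5 CPM in *Ahr* HKO (log2 FC 1.32, adjusted *P* value = 0.0115). *Aldh3a2*, which acts on fatty aldehydes, rose from 187.2 to 297.8 CPM (log2 FC 0.67, adjusted *P* value = 0.0139). *Aldh7a1* rose from 393.5 to 574.2 CPM (log2 FC 0.55, adjusted *P* value = 0.0329) and had a positive interaction of 0.90. *Aldh2*, the mitochondrial enzyme that clears acetaldehyde, was at 2354 to 2995 CPM in the group means and was not called in any comparison.

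Other amine oxidases and amine-inactivating enzymes numbered 12, of which 8 were tested, and *Pnmt*, *Dbh* and *Th* had no read. With EtOH 1 fell in WT, and 2 rose and 2 fell in *Ahr* HKO. On the control diet 2 rose and 2 fell in *Ahr* HKO against WT, none was called between genotypes on EtOH, and the interaction was positive for 2 and negative for 1. *Paox*, a peroxisomal polyamine oxidase, fell with EtOH in WT from 24.5 to 12.4 CPM (log2 FC -0.98 ± 0.117, adjusted *P* value = 0.0054) and rose in *Ahr* HKO from 11.96 to 21.0 CPM (0.81 ± 0.213, adjusted *P* value = 0.0279), with an interaction of 1.79 (adjusted *P* value = 0.0013). *Smox*, the spermine oxidase, rose in *Ahr* HKO on the control diet from 3.31 to 7.37 CPM (adjusted *P* value = 0.00902) and fell with EtOH in *Ahr* HKO to 2.23 CPM (adjusted *P* value = 0.00262). *Hnmt*, which methylates histamine, fell in *Ahr* HKO on the control diet from 14.9 to 8.37 CPM (adjusted *P* value = 0.00639) and rose with EtOH in *Ahr* HKO to 18.6 CPM (adjusted *P* value = 0.00528).

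Aldehyde oxidases need a sulfurated molybdenum cofactor. None of the 9 tested genes for the cofactor and for the other molybdoenzymes was called with EtOH in WT, where 4.24% of all tested genes were called higher and 4.48% lower. With EtOH in *Ahr* HKO, where these shares were 15% and 16.1%, 7 rose and 2 fell. The difference between these counts was not tested. On the control diet 2 rose and 4 fell in *Ahr* HKO, none was called between genotypes on EtOH, and 2 had a positive and 2 a negative interaction. *Marc1*, a mitochondrial amidoxime-reducing molybdoenzyme, fell in *Ahr* HKO on the control diet from 358 to 211.8 CPM (adjusted *P* value = 0.00205) and rose with EtOH in *Ahr* HKO to 395.1 CPM (adjusted *P* value = 0.00242), with an interaction of 1.11 (adjusted *P* value = 0.000797). *Mocos*, the sulfurase that activates aldehyde and xanthine oxidases, fell in *Ahr* HKO on the control diet from 48.1 to 38.4 CPM (log2 FC -0.32, adjusted *P* value = 0.0354) and rose with EtOH in *Ahr* HKO to 52.9 CPM (0.46, adjusted *P* value = 0.0318). *Gphn*, which inserts molybdenum, fell from 70.7 to 42.3 CPM (adjusted *P* value = 0.00664) and rose to 69.7 CPM (adjusted *P* value = 0.0153) in the same comparisons. *Xdh* and *Mocs3* went the other way. *Xdh*, the related xanthine dehydrogenase, went from 134.0 CPM in WT control to 299.0 CPM in *Ahr* HKO control (1.16 ± 0.19, adjusted *P* value = 0.00533) and 174.6 CPM in *Ahr* HKO EtOH (-0.78, adjusted *P* value = 0.0202). *Mocs3*, of cofactor synthesis, went from 5.26 to 8.8 CPM (adjusted *P* value = 0.0183) and then to 4.59 CPM (adjusted *P* value = 0.00285), with an interaction of -1.03 (adjusted *P* value = 0.0149).

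Of the 4 genes that supply FAD and pyridoxal phosphate, 1 rose with EtOH in WT and 1 in *Ahr* HKO, 1 rose and 1 fell in *Ahr* HKO on the control diet, none was called between genotypes on EtOH, and the interaction was positive for 1 and negative for 1. *Pdxk*, the kinase that forms pyridoxal phosphate, fell in *Ahr* HKO on the control diet from 61.2 to 38.5 CPM (log2 FC -0.67, adjusted *P* value = 0.0233) and rose with EtOH in *Ahr* HKO to 75.6 CPM (0.97, adjusted *P* value = 0.00783). *Ddc*, which uses that cofactor, fell and rose in the same comparisons.

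Of 9 amine transporters 5 were tested. With EtOH 1 rose in WT and 2 in *Ahr* HKO, 1 fell in *Ahr* HKO on the control diet, and none was called between genotypes on EtOH or for the interaction. None of 12 serotonin receptor genes was tested, 8 had no read, and their summed level was at most 0.27 CPM in any library.

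**Figure D4:**
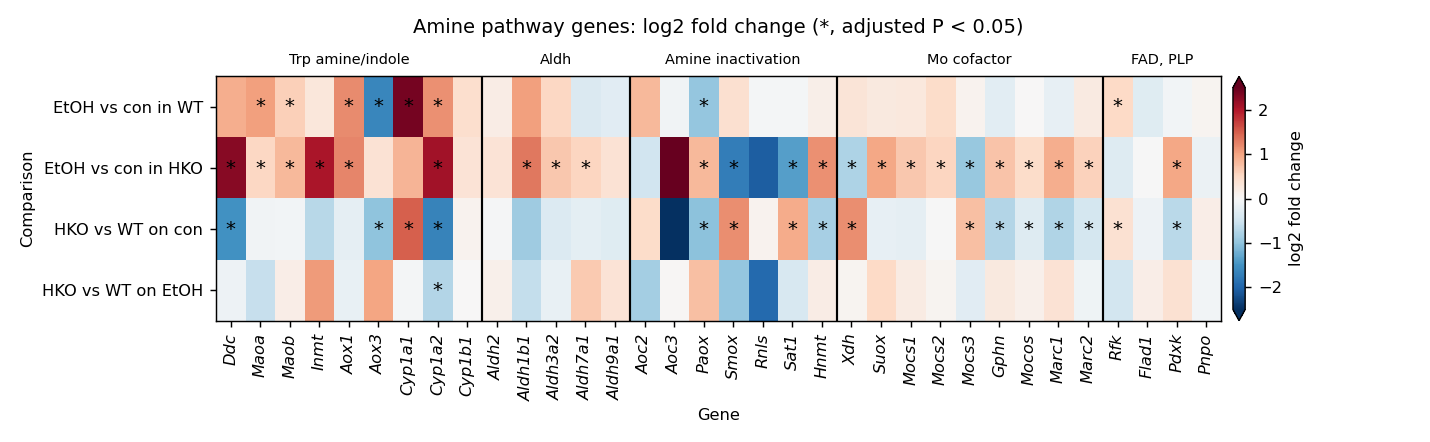
Log2 fold change from edgeR (color, red higher and blue lower) of tested genes of the amine pathway lists (columns) in the 4 comparisons of pairs of groups (rows), with an asterisk for an adjusted *P* value under 0.05. In the molybdenum cofactor block the row for EtOH in WT holds no asterisk, and the row for EtOH in *Ahr* HKO holds 9, beside 4.24% higher and 4.48% lower calls over all tested genes in WT and 15% and 16.1% in *Ahr* HKO.

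For each gene, the tested genes with the most similar profile were found as the smallest root mean square difference of centered log2 CPM over the 12 libraries, a description with no test. The nearest to *Aox3* was *Ces3a*, a liver carboxylesterase, at 0.155 log2 units, beside an SD of 0.67 for *Aox3* itself, followed by *Gm16548* at 0.257 and *Sipa1l3* at 0.273. *Aox1* (SD 0.657) was nearest to *Blvrb*, a biliverdin reductase, at 0.172, then *Creg1* at 0.191 and *Abhd6* at 0.196. *Maob* (SD 0.437) was nearest to *Lipc*, hepatic lipase, at 0.114, then *4931406C07Rik* at 0.125 and the glutathione transferase *Gstt1* at 0.14. *Maoa* (SD 0.469) was nearest to the enolase *Eno1* at 0.129, then *Fth1* at 0.169 and *Fbp1* at 0.17. The closest profiles to *Ddc* (SD 1.09) were farther off, *Mreg* at 0.317, *Nme4* at 0.35 and *Mypop* at 0.376.

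Several other gene groups moved across the same livers. Of 11 genes known to be higher in male than in female mouse liver, 9 fell and none rose with EtOH in WT, the comparison in which *Aox3* fell. In *Ahr* HKO on the control diet 5 fell and none rose. The shares of all tested genes called lower in these comparisons were 4.48% and 14.4%. Of the male-biased genes 3 rose and 1 fell with EtOH in *Ahr* HKO, on EtOH 4 rose in *Ahr* HKO against WT, and 10 had a positive interaction. Their summed level was 21810 to 23440 CPM in WT control, 2746 to 3773 CPM in WT EtOH and 10880 to 15710 CPM in *Ahr* HKO control. In *Ahr* HKO EtOH, liver 1 stood apart at 5121 CPM beside 15290 and 14840 CPM, and it also had the lowest *Aox3* level of its group. In each of the other groups, however, the order of the livers by this sum differed from their order by *Aox3*. Without *Ahr* HKO EtOH liver 1 the *Aox3* interaction was 2.13. Of 12 tested genes higher in female liver, 7 rose with EtOH in WT and 3 in *Ahr* HKO, none was called on the control diet, 1 fell in *Ahr* HKO on EtOH, and 2 had a negative interaction. The part of either group in the *Aox3* result was not tested.

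NRF2 is a transcription factor of the oxidant response. With EtOH in WT, where 4.24% of all tested genes were called higher, 8 of its 9 listed target genes rose, beside the increase of *Aox1*, *Maoa* and *Maob*. With EtOH in *Ahr* HKO 4 of these targets rose and 2 fell, while *Aox1*, *Maoa*, *Maob* and *Ddc* rose. On the control diet 4 targets rose and 1 fell in *Ahr* HKO, none was called on EtOH between genotypes, and 5 had a negative interaction. Their summed level was 891.2 to 1207 CPM in WT control, 5482 to 7439 CPM in WT EtOH, 1367 to 1783 CPM in *Ahr* HKO control and 3100 to 4090 CPM in *Ahr* HKO EtOH. Of 6 tested AhR target genes 4 rose with EtOH in WT and 2 in *Ahr* HKO, 1 rose and 1 fell in *Ahr* HKO on the control diet, 1 fell on EtOH, and none had a called interaction. Their part in the changes of the 5 genes was not tested.

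Of the hepatocyte markers 1 fell with EtOH in WT, 1 rose with EtOH in *Ahr* HKO, 1 rose in *Ahr* HKO on the control diet, and 1 had a positive interaction. Pericentral hepatocyte genes gave 1 higher and 1 lower call of 7 with EtOH in WT and 1 higher in *Ahr* HKO, 1 lower between genotypes on the control diet, none on EtOH and 1 positive interaction. Periportal hepatocyte genes gave 2 higher of 6 with EtOH in WT and 5 higher in *Ahr* HKO, 1 higher and 2 lower between genotypes on the control diet, 1 higher on EtOH and 3 positive interactions.

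Among other cells, 7 of 9 tested Kupffer cell and leukocyte markers fell with EtOH in *Ahr* HKO, where 16.1% of all tested genes were called lower. In that comparison *Ddc*, *Aox1*, *Maob* and *Maoa* rose. The sum of the 10 Kupffer cell and leukocyte genes was 156.3 to 343 CPM in *Ahr* HKO control and 105.1 to 125.9 CPM in *Ahr* HKO EtOH. None of these markers was called with EtOH in WT or between genotypes on EtOH, 1 rose and 1 fell on the control diet, and 4 had a negative interaction. Sinusoidal endothelial markers gave 3 lower of 6 with EtOH in *Ahr* HKO, 1 higher between genotypes on the control diet and 1 negative interaction. Cholangiocyte markers gave 1 lower of 5, 1 higher and 1 negative interaction in the same comparisons. Stellate cell markers gave 2 higher of 8 with EtOH in WT, 2 lower on the control diet, 1 higher and 1 lower with EtOH in *Ahr* HKO and 1 negative interaction, and of 5 tested mast cell and platelet markers 1 was lower on the control diet. The part of such cells in the values of the 5 genes was not tested.

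Genes near the members on the same chromosomes were looked at as well. Of 7 such genes, *Ndp* and *Efhc2* near the monoamine oxidase pair had no read in any library, and 5 were tested. None was called with EtOH in WT or between genotypes on EtOH. *Bzw1*, on the *Aox3* side of chromosome 1, rose in *Ahr* HKO on the control diet from 80.4 to 118.3 CPM (log2 FC 0.56, adjusted *P* value = 0.0102), where *Aox3* fell, and *Cobl*, near *Ddc*, rose from 21.5 to 58.3 CPM (1.44, adjusted *P* value = 0.00338), where *Ddc* fell. Both fell with EtOH in *Ahr* HKO, by 0.60 and 1.94 on the log2 scale, and both had a negative interaction.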

How the data were processed

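RNA-seq of 12 livers, 4 groups of 3, was analyzed, with groups taken from the labels. The deposited values are read counts of each gene, not normalized, FPKM values, which the authors scaled to gene length and library size, and TPM values, a further scaling by the authors that summed to 924962 to 987569 per library. The submitters' processing notes name FastQC 0.11.7, Trimmomatic 0.38, HISAT2 2.1.0, Bowtie2 2.3.4.1 and StringTie 1.3.4d with build mm10. Libraries were stranded, from polyadenylated RNA. None of the 66 pairs of libraries was identical. Between replicates the chi-square statistic per gene, averaged over genes, was 68 to 310, so on average the spread between livers exceeded counting error. This average need not hold for each gene.

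Counts were tested with edgeR 4.0.16 (R 4.3.3), with the filter on low counts set over the 4 groups and TMM factors. A comparison of 2 groups used only their 6 libraries and the interaction all 12, two-sided, with Benjamini-Hochberg adjustment over 14038 genes. FPKM was used only for levels between genes and for ratios within a liver, which were tested by exact permutation over livers. The alternatives used DESeq2 1.42.0, limma 3.58.1 on log2 of FPKM plus 1 or 0.1, other scalings and filters, a replicate block, and each liver left out. The fits were tested on simulated data. Sequences and start sites are from RefSeq (GRCm38.p6) and exons from GENCODE M21. Promoter windows were matched for 4 of the 5 genes. Protein sequences were not used here.

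The 5 genes and all gene lists were chosen with earlier results of these data known. Named were the 5 genes in every comparison, from each list at most 4 called genes with the smallest adjusted *P* value, or else the gene with the highest mean CPM, the 3 nearest profiles per gene, and *Ahr*, *Cyp1a1* and *Cyp1a2* for the genotype. *Aldh2*, *Mocos*, *Mocs3*, *Gphn* and *Xdh*, and genes with no read, are named beyond that rule, chosen after their values were seen. Some genes of the lists enter the counts and are not reported here by name.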

Additional observations from a re-analysis of the deposited data

Results flagged for a closer look

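The diet difference of *Aox3* differed between the genotypes by 1.99 ± 0.323 on the log2 scale in the interaction test of edgeR (adjusted *P* value = 0.00229). With EtOH *Aox3* went from 646.5 to 208.4 CPM in WT (means of 3 livers), and 3 of 3 EtOH livers were lower than every control liver. In *Ahr* HKO it went from 321.1 to 412.4 CPM, with overlapping groups. Of 11 male-biased liver genes 10, and *Paox*, also had a positive interaction across the same livers, as did 11.2% of all tested genes. The part of the male-biased genes and *Paox* in the *Aox3* value was not tested.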

How the results depend on the processing

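The calls of *Maoa*, *Aox1* and *Aox3* with EtOH in WT, of *Ddc* and *Aox3* between genotypes on the control diet, of *Ddc* and *Aox1* with EtOH in *Ahr* HKO, and the *Aox3* interaction were kept in all settings and with any liver left out. *Maob* with EtOH in WT lost its call in 4 of 9 settings and 5 of 6 left-out fits (adjusted *P* value 0.00267 to 0.153), and *Maoa* with EtOH in *Ahr* HKO in 3 of 9 and 4 of 6 (0.00633 to 0.0779). *Ddc* with EtOH in WT was called in 4 of 9 settings.

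Between genotypes on EtOH, where edgeR called 0 of the 5 genes, DESeq2 called 2, all 12 libraries in a single fit 2, and limma on log2(FPKM + 1) and on log2(FPKM + 0.1) 1 each. For the interaction, with 1 call, DESeq2, the minimum of 10 counts and limma on quantile-normalized values gave 3 by adding *Ddc* and *Maoa*, upper-quartile scaling gave 2 by adding *Ddc*, limma with either pseudocount gave 2 by adding *Maoa*, and left-out fits gave 1 to 3. With EtOH in *Ahr* HKO, left-out fits gave 2 to 4 calls. Over all genes, the settings called 2745 to 3977 for the interaction, beside 3137 in the main fit, and left-out fits 2267 to 3084. With EtOH in *Ahr* HKO the settings called 2970 to 5104 of all genes, beside 4374, and left-out fits 2588 to 3795. Such ranges pool the settings and give no share for a single setting. The cause of the shifts in calls of the 5 genes was not tested. Livers with the same replicate number correlated at -0.088 to 0.178 in their deviations from the group means. The highest values, 0.178 and 0.133, were for numbers 1 and 2 between genotypes on EtOH, beside at most -0.002 and 0.013 with other numbers. With 3 livers per group these values cannot decide whether the numbers pair the livers. With the replicate block the calls with EtOH in *Ahr* HKO were 2 in place of 4, and those of the interaction 2 in place of 1.

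The *Maob* to *Maoa* ratio with EtOH in WT was -0.052 with FPKM + 1, beside -0.44, since a pseudocount of 1 is close to the level of *Maoa*. Between genotypes on the control diet it ranged from -0.2 to 0.19 with 1 liver left out (0.19, 0.059 and 0.113 where it changed sign). Differences that were never called also changed sign. *Maob* on the control diet gave 0.064, 0.026 and 0.067 with 1 liver left out (range -0.296 to 0.067), and on EtOH -0.069 and -0.07 with limma and -0.011 without 1 liver (range -0.011 to 0.245). *Ddc* on EtOH gave 0.11 and 0.07 with 1 liver left out (range -0.415 to 0.11). The interaction gave -0.011 and -0.01 with limma for *Maob*, and for *Aox1* -0.224 and -0.226 with limma and -0.073, -0.025, -0.007 and -0.042 with 1 liver left out (range -0.073 to 0.209). Over all genes, calls with EtOH in WT numbered 1224 (539 to 2354 over the settings, 360 to 1011 with 1 liver left out), and between genotypes on EtOH 149 (113 to 1484, and 10 to 193). With 3 livers per group, exact tests cannot go below 0.1.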
